A study of Mus musculus with 48 samples.

Results

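One copy of Chd8, the gene for a chromodomain helicase that uses ATP to remodel chromatin, carries stop codons in the Chd8 V986*/+ mouse. The comparison of Chd8 V986*/+ with wild-type (WT) cortex at 6 months is described here across all genes. Its 12 samples, 6 WT and 6 Chd8 V986*/+ male C57BL/6J mice, were taken by genotype and age from the labels, out of 48 samples of dissected cortex that span E14.5 to 12 months. The stop codons were introduced at V986 and E987 by CRISPR/Cas9, the line descends from 1 male founder backcrossed to C57BL/6J, and the controls were littermates. The allele is present in every cell, so neurons and glia of the mutant all carry it. The cortex of one hemisphere per mouse was profiled by polyA RNA-seq, and the authors deposited log2-scale values from a variance-stabilizing transformation (VST) for 24444 genes. A difference of 1 corresponds to about a doubling of abundant transcripts and to more than that near 2.1433, the most frequent value of the table, which was taken as the value of a gene without reads. Mice are called by their replicate number below.

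CHD8 sits at the promoters of many active genes and is known to restrain Wnt and p53 target genes in other settings. Heterozygous loss-of-function mutations of human CHD8 are linked to autism spectrum disorder and macrocephaly. At 6 months the mouse cortex is mature: neurons are long postmitotic, and oligodendrocytes, which wrap axons in myelin, and astrocytes, which take up glutamate and potassium, make up much of the remaining tissue. The site of the mutation is shown because the test of the labels rests on this gene. In the mm9 reference, Chd8 spans chr14:52817826-52857466 on the minus strand. The codons of V986 and E987 lie in exon 14 of 37, after 38.1% of the 2582 codons. The reference coding strand at chr14:52837914-52837979 reads, with the codons of V986 and E987 in capitals and 30 bases on either side:

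Chd8 reference, 5′ to 3′: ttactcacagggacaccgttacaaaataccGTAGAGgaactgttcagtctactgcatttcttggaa

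Chd8 was the most strongly reduced transcript by its test. VST expression of Chd8 ran from 11.72 to 11.78 in the WT mice, with a median of 11.75, and from 10.97 to 11.17 in the Chd8 V986*/+ mice, with a median of 11.14. All 6 mutants lay below all 6 WT mice, so no label was contradicted. The log2 fold-change was −0.64 (standard error 0.04, limma adjp = 1.1e-07), so the mutant mean was 64.2% of WT. An exact two-sided permutation test gave p = 0.0022, the smallest value that 6 against 6 mice allow. The mutant allele itself was not analysed here. The genes on either side of Chd8 on chromosome 14 were not called. Supt16, a histone chaperone subunit, had a fold-change of −0.02 (standard error 0.05), and Rab2b, a small GTPase, had 0.10 (standard error 0.04, limma adjp = 0.559). Of the 10 measured CHD-family remodelers, only Chd8 was called, and the fold-changes of its closest relatives Chd7 and Chd9 were 0.04 (standard error 0.09) and 0.04 (standard error 0.05).

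Beyond Chd8, genotype was associated with small changes in few genes. Of 17256 genes with a mean at least 0.5 above the value of a gene without reads, 16 passed a limma adjp of 0.1, which is 0.0927% of those tested. In Chd8 V986*/+ cortex 9 (0.0522%) rose and 7 (0.0406%) fell. With each sample centred on its median gene, 9 rose and 11 fell. In 15 of the 16 the WT and mutant mice did not overlap. The 16 were selected on these same values, so the lack of overlap is not separate evidence. Over all genes tested, the groups did not overlap in 39 genes with higher values in the mutant (0.226%) and in 52 with lower values (0.301%). The median fold-change of all genes was −0.00088, and the mutant mean was higher in 49.6% of them and lower in 50.4%. The spread between mice was the same in both groups, with a median SD over genes of 0.128. The 16 called genes lie on 10 chromosomes, with Usp11, Hmgb3 and Egfl6 on the X. With read depth as a covariate only Chd8 and Hmgb3 remained called, while the fold-changes of the other 14 were 88.7% to 109% of those without it, as for Crlf2 at 0.38 and Usp11 at −0.28. Of 12 fits that each left out 1 mouse, Chd8, Slc5a5, Usp11 and Hmgb3 were called in all 12, Ddo in 10, Egfl6 in 7, Crlf2 in 6, Padi2 in 5, and Tmem209 and Lxn in 4. Phc1 and Parva were called in 3 of them, Tmem50a, Cd9 and Dcakd in 2, and Rlbp1 in 1. Slc5a5 was not called in a fit of all 48 samples together, which takes the spread of a gene from all ages. Leaving out any one of WT mice 4, 5 and 6 or mutant mice 1, 2, 4, 5 and 6 left between 5 and 8 called genes.

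**Figure D1:**
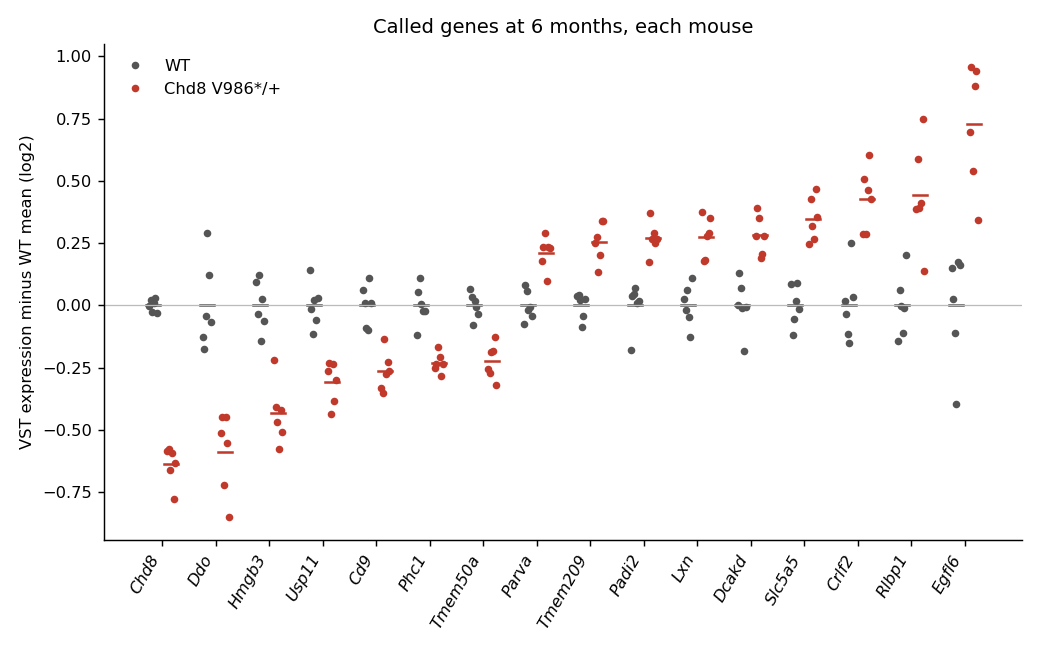
VST expression of the 16 called genes in each of the 6 WT (grey) and 6 Chd8 V986*/+ (red) mice at 6 months, as the difference from the WT mean of the gene in log2 units, with lines at the group means. The groups overlap only in Rlbp1, and the means range from −0.64 for Chd8 to 0.73 for Egfl6.

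**Figure D2:**
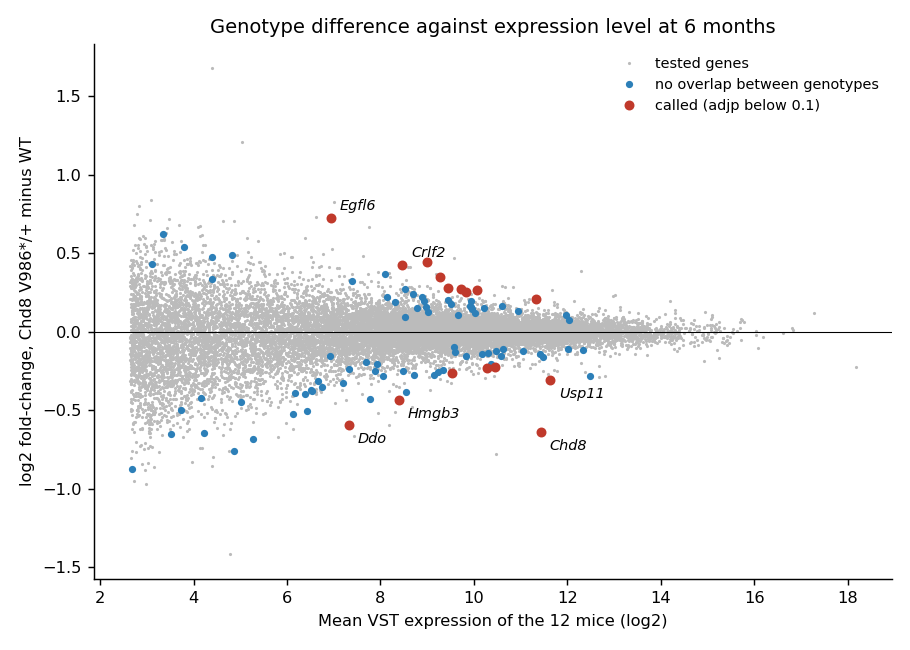
Log2 fold-change (Chd8 V986*/+ minus WT) against mean VST expression over 12 mice for the 17256 genes tested, with the 16 called genes in red and the other genes whose groups did not overlap in blue. The scatter widens toward low expression, and called genes have mean levels between those of Egfl6 and Usp11.

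Hmgb3 and Phc1, beside Chd8, were the reduced genes that encode chromatin proteins. Hmgb3 is a high mobility group protein that binds and bends DNA. Its VST expression ran from 8.47 to 8.73 in WT mice (median 8.61) and from 8.04 to 8.39 in mutants (median 8.17). Every mutant was below every WT mouse, and Hmgb3 fell by 0.43 on the log2 scale (standard error 0.07, limma adjp = 0.0321). Hmgb3 was the only gene apart from Chd8 that stayed called under all 10 alternative settings and without any single mouse. Phc1, a core subunit of Polycomb repressive complex PRC1, ran from 10.28 to 10.51 in WT mice (median 10.39) and from 10.12 to 10.23 in mutants (median 10.17). It fell by 0.23 (standard error 0.04, limma adjp = 0.0637), again without overlap. Among 9 measured high mobility group genes, 1 was higher and 8 were lower in the mutant, with a median fold-change of −0.06. Only Hmgb3 was called. Hmgn2, a nucleosome-binding member, had WT values from 9.27 to 9.53 and mutant values from 8.95 to 9.24, a difference of −0.26 (limma adjp = 0.266), and Hmgn5 had a difference of −0.21 (limma adjp = 0.634). The 8 measured genes for known CHD8 binding partners gave 0 calls and a median fold-change of −0.01, with Ctcf at −0.03 and Wdr5 at −0.05.

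Enzymes are encoded by 4 of the called genes. Usp11, a deubiquitinase on the X chromosome (chrX:20281032-20297665 in mm9), had WT values from 11.67 to 11.92 (median 11.79) and mutant values from 11.35 to 11.55 (median 11.50). The groups were apart, and the gene fell by 0.31 (standard error 0.05, limma adjp = 0.0321), with differences of −0.31 in replicates 1 to 3 and −0.30 in replicates 4 to 6. Ddo encodes D-aspartate oxidase, the enzyme that degrades D-aspartate. Its WT values ran from 7.44 to 7.90 (median 7.56) and its mutant values from 6.76 to 7.17 (median 7.08). Ddo fell by 0.59 (standard error 0.10, limma adjp = 0.0458), the largest decrease among called genes after Chd8. Padi2, a peptidylarginine deiminase that converts arginine residues to citrulline, ran from 9.76 to 10.01 in WT mice (median 9.97) and from 10.12 to 10.31 in mutants (median 10.21). It rose by 0.27 (standard error 0.05, limma adjp = 0.0575), and the mutants were all above the WT mice. Dcakd, named for a dephospho-CoA kinase domain, ran from 9.13 to 9.44 in WT mice (median 9.31) and from 9.50 to 9.70 in mutants (median 9.59). The rise of 0.28 (standard error 0.05) had a limma adjp of 0.099, close to the threshold, and Dcakd remained called in 2 of the 12 fits without 1 mouse. Of 11 measured genes of D-amino acid and taurine metabolism, Ddo alone was called, and Csad, which makes the precursor of taurine, had a difference of 0.20 (limma adjp = 0.448).

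Receptors, transporters and other membrane proteins are encoded by 5 of the called genes. Crlf2, the receptor chain for thymic stromal lymphopoietin, had WT values from 8.09 to 8.49 (median 8.24) and mutant values from 8.53 to 8.85 (median 8.69). It rose by 0.43 (standard error 0.07, limma adjp = 0.0575) without overlap. Of the 8 measured genes for this receptor, its ligands and its signaling partners, 7 were higher in the mutant and only Crlf2 was called, with a median fold-change of 0.20. With quantile normalization or samples centred on their median gene, 6 of the 8 were higher. Without 1 mouse, 6 to 8 were higher, with medians from 0.13 to 0.24. Il7, a cytokine that shares a receptor chain with this pathway, was near the lower end of the scale, with WT values from 2.79 to 3.91 and mutant values from 3.49 to 4.18 (limma adjp = 0.595). Slc5a5, the sodium-iodide symporter, ran from 8.98 to 9.19 in WT mice (median 9.10) and from 9.35 to 9.57 in mutants (median 9.44). All mutants exceeded all WT mice, and Slc5a5 rose by 0.35 (standard error 0.05, limma adjp = 0.0321). Among 13 genes that handle or respond to thyroid hormone, Slc5a5 was the only call and the median fold-change was −0.02. Slco1c1, a thyroxine carrier of the blood-brain barrier and astrocytes, had WT values from 10.24 to 10.73 and mutant values from 10.62 to 10.94, a difference of 0.28 (limma adjp = 0.266). Dio3, the deiodinase that inactivates thyroid hormone, had a difference of 0.50 (standard error 0.16, limma adjp = 0.427).

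Cd9, a tetraspanin, had WT values from 9.57 to 9.78 (median 9.68) and mutant values from 9.32 to 9.53 (median 9.40). It fell by 0.26 (standard error 0.05, limma adjp = 0.0833) without overlap, but the call was lost with quantile normalization and in 10 of 12 fits without 1 mouse. The transmembrane gene Tmem209 ran from 9.61 to 9.74 in WT mice (median 9.72) and from 9.83 to 10.04 in mutants (median 9.96), a rise of 0.26 (standard error 0.04, limma adjp = 0.0575). Tmem50a ran from 10.49 to 10.64 in WT mice (median 10.57) and from 10.25 to 10.44 in mutants (median 10.35). Tmem50a fell by 0.22 (standard error 0.04, limma adjp = 0.0665), and both transmembrane genes separated the genotypes completely. Without 1 mouse, the call of Tmem209 held in 4 of 12 fits and that of Tmem50a in 2 of 12.

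The remaining 4 called genes all rose, and they encode secreted, adhesion and small-molecule-binding proteins. Egfl6, a secreted protein with EGF-like repeats, had the largest increase. Its WT values ran from 6.18 to 6.75 (median 6.66) and its mutant values from 6.92 to 7.53 (median 7.36), a rise of 0.73 (standard error 0.12, limma adjp = 0.0575). Parva, which encodes the focal adhesion protein alpha-parvin, ran from 11.16 to 11.31 in WT mice (median 11.22) and from 11.33 to 11.52 in mutants (median 11.46), a rise of 0.21 (standard error 0.04, limma adjp = 0.0789). Both genes separated the genotypes, and Parva gave 0.21 in replicates 1 to 3 and 0.21 in replicates 4 to 6. Lxn, a carboxypeptidase inhibitor, ran from 9.45 to 9.69 in WT mice (median 9.58) and from 9.76 to 9.96 in mutants (median 9.86), a rise of 0.28 (standard error 0.05, limma adjp = 0.0665). Rlbp1, a retinaldehyde-binding protein, was the one called gene with overlap, from 8.64 to 8.98 in WT mice (median 8.77) and from 8.92 to 9.53 in mutants (median 9.18). In 5 mutants Rlbp1 was above all WT mice, the rise was 0.44 (standard error 0.09, limma adjp = 0.099), and Rlbp1 remained called in 1 of the 12 fits without 1 mouse.

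Of the 91 genes whose groups did not overlap, 76 were not called. Among those with larger decreases were Tnni1, a slow skeletal troponin I gene, with WT values from 5.55 to 5.71 and mutant values from 4.60 to 5.25 (difference −0.68, limma adjp = 0.105), just outside the threshold. Melk, a kinase gene of proliferating cells, ran from 4.86 to 5.86 in WT mice and from 4.03 to 4.80 in mutants (limma adjp = 0.266). Uox, the urate oxidase gene, had a difference of −0.64 and Txlnb had −0.50 (limma adjp = 0.272 and 0.236). The uncharacterised transcripts 7630403G23Rik, 9330117O12Rik and 1700001G17Rik had differences of −0.65, −0.52 and −0.50. Hist1h4b, one of several near-identical histone H4 genes whose reads can be shared, lay between 2.85 and 3.36 in WT mice and between 2.09 and 2.71 in mutants, at or near the value of a gene without reads. Increases without overlap included the mitochondrial tryptophanyl-tRNA synthetase gene Wars2, from 7.68 to 8.05 in WT mice and from 8.20 to 8.44 in mutants (difference 0.37, limma adjp = 0.159). The others of the 10 largest increases that were not called had VST values below 5.5 in every mouse. Their differences were 0.54 for Skor1, a transcriptional corepressor, 0.49 for Fam221a, 0.48 for Rab38, a small GTPase, 0.43 for Pebp4, 0.34 for Btc, an EGF-family ligand, and 0.63 for Kank4os, which is antisense to Kank4. The labels and the study's methods name different library kits, so whether strand was kept, and with it whether Kank4os reads can be told from Kank4 reads, is not settled here.

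The study named 14 genes as altered at most ages, a list chosen partly on these samples and so not independent evidence. At 6 months 7 of the 14 were called here, 4 higher (Egfl6, Crlf2, Tmem209, Parva) and 3 lower (Chd8, Usp11, Ddo), against 0.0522% of all genes called higher and 0.0406% called lower. Of the other members, Lyrm7, an assembly factor of respiratory complex III, had WT values from 8.15 to 8.47 and mutant values from 8.43 to 8.76 (difference 0.30, limma adjp = 0.239). Pum3, an RNA-binding protein, had a difference of 0.17 (limma adjp = 0.377) and Zbtb45, a zinc finger gene, had −0.20 (limma adjp = 0.458). BC025920 gave 0.24 (limma adjp = 0.674), and Asl, argininosuccinate lyase, gave −0.09 (limma adjp = 0.838) with overlapping groups. Wars2 was reported by the study as differentially expressed at all 4 ages with DESeq2. Here limma on VST values gave Wars2 a difference of 0.37 without a call (limma adjp = 0.159). In the study's cluster 2, also chosen on these samples, 51 of 77 genes were higher in the mutant at 6 months, with a median fold-change of 0.12 and 3 calls, against 49.6% of all genes higher and 0.0522% called higher. The medians of the study's other 4 clusters lay between −0.03 and 0.02.

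Markers of several non-neuronal cell types lay in one direction. Mature oligodendrocyte markers were lower in the mutant for all 14 measured genes, with a median fold-change of −0.19, but 0 of the 14 were called. With the replicate number as a block, Mal and Mobp were called (limma adjp = 0.0296 and 0.056). The labels do not say that these numbers pair mice. Without the block, 9 of the 14 were lower and 0 were higher at an unadjusted limma p below 0.05, against 4.05% and 3.54% of all genes. Markers of a cell type come from the same mice and can vary together, so such counts are not counts of separate results. The mean VST value of the list ran from 11.67 to 11.88 in WT mice (median 11.72) and from 11.35 to 11.66 in mutants (median 11.61), so the genotypes did not overlap. Mutant mice 4 and 2 were lowest and WT mouse 5 was highest. Mal, a membrane protein of myelin, had WT values from 12.56 to 12.75 (median 12.62) and mutant values from 12.10 to 12.52 (median 12.35). It was the only member without overlap, at −0.28 (standard error 0.06, limma adjp = 0.147). Mog, on the outer surface of myelin, ran from 10.12 to 10.41 in WT mice and from 9.75 to 10.13 in mutants, a difference of −0.26 (limma adjp = 0.314). Cldn11, which forms the tight junctions of myelin, differed by −0.25 (limma adjp = 0.319), Mobp by −0.25 (limma adjp = 0.377), and Mag, an adhesion protein of the inner myelin layer, by −0.24 (limma adjp = 0.378). Further members with an unadjusted p below 0.05 included Cnp (−0.22), Ugt8a (−0.14) and Ermn (−0.12). Mbp, the major basic protein of myelin, differed by −0.10 (standard error 0.05, limma adjp = 0.726). Without any one mouse, all 14 stayed lower, with medians between −0.22 and −0.15 and between 7 and 11 members at the unadjusted level. In bulk tissue, fewer oligodendrocytes in the dissected piece and less of this RNA per cell cannot be told apart. Whether the dissected pieces differed in the tissue they held was not tested.

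**Figure D3:**
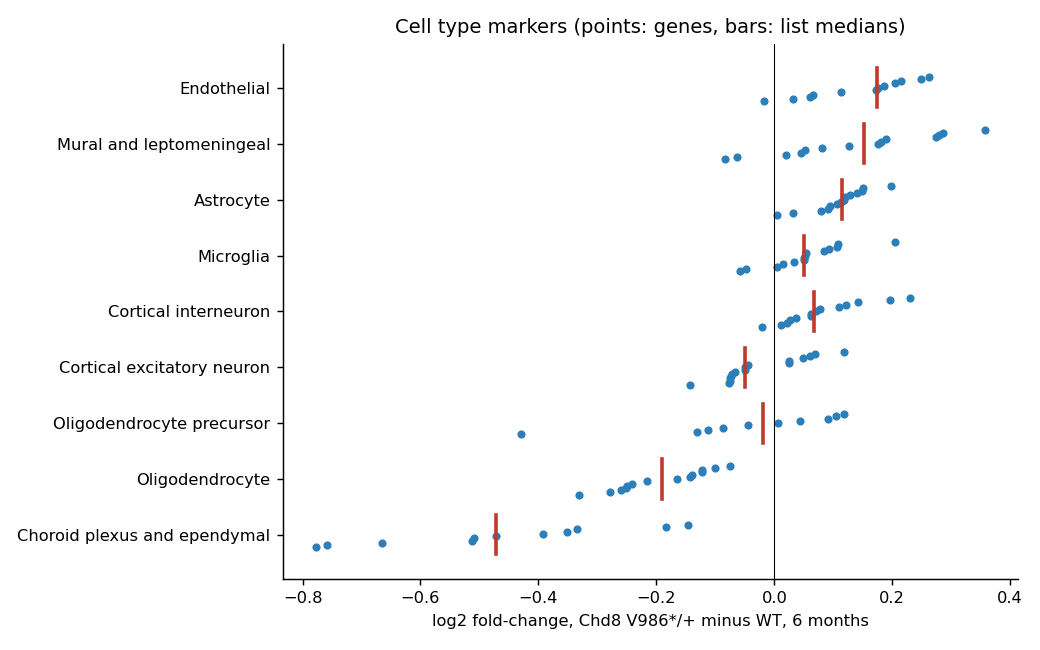
Log2 fold-changes (Chd8 V986*/+ minus WT, 6 months) of the markers of 9 cell types, one point per gene and a red bar at the median of each list. All 14 oligodendrocyte and all 11 choroid plexus and ependymal markers lie below 0, and all 14 astrocyte markers lie above it.

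Precursors of oligodendrocytes gave no such pattern over the list. Of 10 markers, 5 were higher and 5 lower, with a median of −0.02. Pdgfra, the growth factor receptor that defines these cells, differed by 0.04 (standard error 0.06). Enpp6, a choline phosphodiesterase of newly formed oligodendrocytes, stood apart from the other members. Its WT values ran from 7.86 to 8.22 (median 7.97) and its mutant values from 7.11 to 7.75 (median 7.64), a difference of −0.43 without overlap (standard error 0.10, limma adjp = 0.248).

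Astrocyte markers were higher in the mutant for all 14 measured genes, with a median fold-change of 0.12 and 0 calls. At an unadjusted limma p below 0.05, 4 of them were higher, against 3.54% of all genes. The mean of the list ran from 12.49 to 12.70 in WT mice and from 12.53 to 12.83 in mutants, so the groups overlapped. Without 1 mouse, 13 or 14 of the 14 were higher, with medians from 0.08 to 0.15. The genes at the unadjusted level then numbered between 1 (without WT mouse 1 or mutant mouse 2 or 5) and 8 (without WT mouse 3), with 2 without WT mouse 5. Aqp4, the water channel of astrocyte endfeet, ran from 11.94 to 12.20 in WT mice and from 12.03 to 12.39 in mutants, a difference of 0.20 (limma adjp = 0.391). The gap junction gene Gja1, the glutamate transporter gene Slc1a3 and Atp1b2, a sodium pump subunit, differed by 0.15, 0.14 and 0.10. Of 12 endothelial markers 11 were higher, with a median of 0.17 and 0 calls, and 1 of them, Itm2a, had an unadjusted p below 0.05 (difference 0.22, limma adjp = 0.62). Of 14 mural and leptomeningeal markers 12 were higher, with a median of 0.15 and 0 calls. Without mutant mouse 2 the mural median was 0.05 with 8 of 14 higher, and without any other mouse it lay between 0.11 and 0.20 with 10 to 13 higher. The endothelial median was between 0.12 and 0.22 without 1 mouse, with 10 to 12 higher, but the number at the unadjusted level was 0 without WT mouse 3, 3 without WT mouse 5, 5 without mutant mouse 3 and 4 without mutant mouse 4. The endothelial mean ran from 9.21 to 9.45 in WT mice and from 9.24 to 9.66 in mutants. Microglia markers were higher in 12 of 14 genes, with a median of 0.05, 0 calls, and P2ry12, a purine receptor of resting microglia, at 0.21 (limma adjp = 0.541). The microglial median was 0.02 without WT mouse 2, with 10 of 14 higher, 0.02 without mutant mouse 5, with 8 higher, and 0.08 without mutant mouse 3, with 11 higher.

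Interneuron markers were higher in 13 of 14 genes, with a median of 0.07 and 0 calls. Their median was 0.03 without mutant mouse 2 and 0.11 without mutant mouse 3, each with 11 higher. Npy and Sst, neuropeptides of cortical interneurons, differed by 0.20 (limma adjp = 0.414) and 0.11 (limma adjp = 0.574), while Pvalb differed by 0.01. Of 16 excitatory neuron markers 6 were higher and 10 lower, with a median of −0.05, and the median lay between −0.08 and −0.01 without 1 mouse. It was −0.08 without WT mouse 1 or mutant mouse 6, −0.03 without WT mouse 2 or 5 or mutant mouse 1, −0.02 without WT mouse 4 and −0.01 without mutant mouse 2. Slc17a7, the vesicular glutamate transporter that defines cortical excitatory neurons, was among the most abundant transcripts, from 15.03 to 15.26 in WT mice and from 15.14 to 15.32 in mutants. The labelled tissue thus carried its defining marker in all 12 samples.

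Choroid plexus and ependymal markers were lower in the mutant for all 11 measured genes, with a median of −0.47 and 0 calls. Their mean ran from 6.08 to 7.69 in WT mice and from 5.64 to 6.84 in mutants, a range wider than the difference between genotypes. WT mice 2 and 5 were highest and mutant mouse 4 was lowest. Without any one mouse all 11 stayed lower, and the median moved furthest, to −0.28, without WT mouse 2. Ttr, the transthyretin gene that defines the choroid plexus, ran from 8.45 to 13.94 in WT mice and from 7.98 to 12.39 in mutants. The chloride channel gene Clic6, the ciliary gene Ccdc153 and Rarres2 had the unadjusted p values below 0.05, with differences of −0.67, −0.51 and −0.33 (limma adjp = 0.579, 0.567 and 0.488). These markers trace tissue next to the cortex, and their part in the results on other genes was not tested. The oligodendrocyte, astrocyte and choroid plexus directions were the same with quantile normalization and with samples centred on their median gene.

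**Figure D4:**
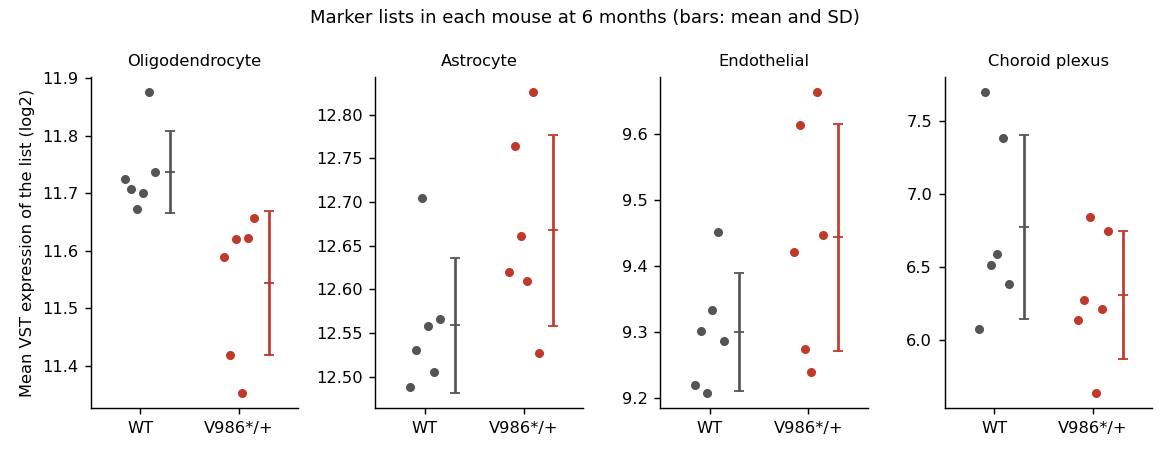
Mean VST expression (log2) of 4 marker lists in each WT (grey) and Chd8 V986*/+ (red) mouse at 6 months, with the mean and SD beside the points. The oligodendrocyte list separates the genotypes, at 11.67 to 11.88 against 11.35 to 11.66, while the astrocyte, endothelial and choroid plexus lists overlap.

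Lists for cellular pathways showed few differences at 6 months. Over all genes tested, 3.54% were higher and 4.05% lower at an unadjusted limma p below 0.05. The median of 31 splicing factor genes was −0.03, with 21 lower and 0 called, and 16 lower without WT mouse 3. The 5 with an unadjusted p below 0.05 were all lower, among them Nova1, a neuronal splicing regulator, with WT values from 10.86 to 11.18 and mutant values from 10.72 to 11.06 (difference −0.21, limma adjp = 0.368), and Srsf5 (difference −0.23, limma adjp = 0.443). Of 52 respiratory chain subunits 35 were higher, with a median of 0.03, 0 calls and 6 genes higher at the unadjusted level, a number that was 3 without mutant mouse 1 and 11 without WT mouse 3. The complex I genes Ndufa2, Ndufa3, Ndufb6 and Ndufa8 differed by 0.14, 0.13, 0.11 and 0.08, and Sdhb and Atp5c1 by 0.09 and 0.08. Of 30 genes of the unfolded protein response and endoplasmic reticulum folding 20 were higher, with a median of 0.05 and 0 calls, and without 1 mouse the median lay between 0.01 (without WT mouse 1, 5 or 6 or mutant mouse 2) and 0.06. Hspa5, the main chaperone of the endoplasmic reticulum, ran from 12.39 to 13.48 in WT mice and from 12.79 to 13.49 in mutants, a difference of 0.24 (standard error 0.17, limma adjp = 0.795). The unadjusted p was below 0.05 for 1 of the 30, Trib3, a pseudokinase induced by stress (difference 0.36, limma adjp = 0.627). None of 24 heat shock genes had an unadjusted p below 0.05, and the median was 0.01. The 22 further lists, which cover Wnt and p53 targets, autism risk genes, channels, receptors, ribosomal proteins, immune, clock and activity genes and markers of other regions, held 431 measured genes. They gave 0 calls, 11 genes higher and 11 lower at the unadjusted level, and medians between −0.05 (complement and inflammation) and 0.14 (thalamic and hypothalamic markers). Among p53-related genes, Trp53 itself differed by −0.17 (limma adjp = 0.62), and of the Wnt targets Notum, a secreted Wnt deacylase, differed by 0.37 (limma adjp = 0.598). The study's 8 pathway lists, also chosen on these samples, held 83 measured genes, with 1 call, Parva of the focal adhesion list, and medians between −0.06 (HSF1 activation) and 0.13 (focal adhesion).

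The 15 called genes other than Chd8 were then examined in the other ages, whose mice were not used in the comparison at 6 months. Their counts below are for the same direction as at 6 months, whereas the shares of all genes count both directions. At 1 month 14 of the 15 had the same direction, 13 of them at an unadjusted p below 0.05, against 8.8% of all genes at that age. Usp11, Hmgb3, Ddo and Crlf2 also passed a limma adjp of 0.1 there, against 0.139% of genes. At 12 months 14 of the 15 had the same direction, 10 at an unadjusted p below 0.05 against 11.6% of all genes, and Usp11 was called, against 0.0463%. At E14.5 the direction was shared by 13 and the unadjusted p was below 0.05 for 3, Usp11, Crlf2 and Tmem209, against 4.56% of genes. None of the 15 was called at E14.5, where 0.00593% of genes were. Usp11 had fold-changes of −0.17, −0.40, −0.31 and −0.34 from E14.5 to 12 months. Padi2 had −0.50, −0.05, 0.27 and 0.58, the widest range among the called genes.

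**Figure D5:**
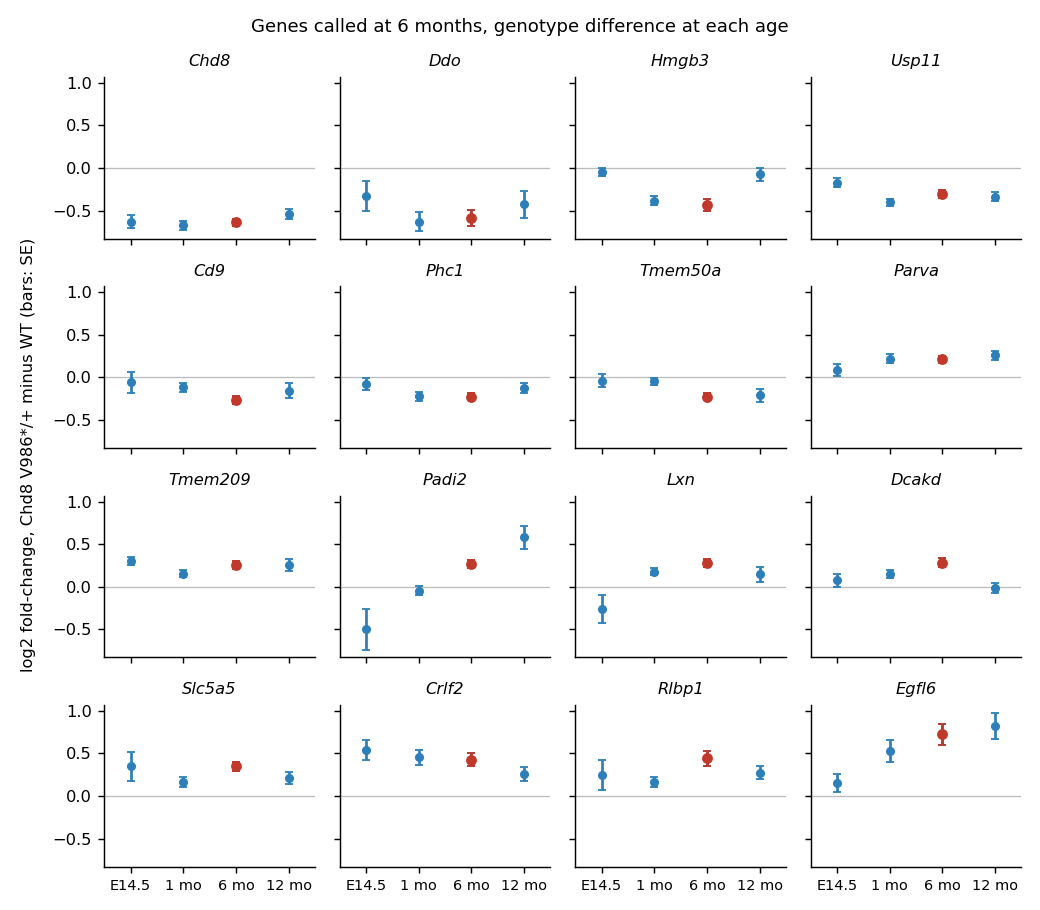
Log2 fold-change (Chd8 V986*/+ minus WT) of the 16 genes called at 6 months at each of 4 ages, with standard errors; 6 months is in red. Hmgb3 lies near 0 at E14.5 and 12 months and at −0.38 and −0.43 at 1 and 6 months, whereas Chd8 is lower at every age.

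Whether the genotype effect at 6 months differed from that at another age was tested gene by gene with an interaction term in one limma fit. Against 12 months 10 of 17271 genes (0.0579%) passed an adjp of 0.1, 3 with the effect at 6 months above that at 12 months and 7 below. Hmgb3 was one of them, with fold-changes of −0.43 at 6 months and −0.08 at 12 months, a difference of −0.36 (standard error 0.08, limma adjp = 0.0891). Dio3 had the lowest adjp, with fold-changes from 0.50 at 6 months to −0.81 at 12 months (difference 1.31, standard error 0.19, limma adjp = 2.9e-04). The other 8, named after their values were seen, included Gli1, a transcription factor of hedgehog signaling, at −0.41 and 0.44 (limma adjp = 0.0891) and Zfp566, a zinc finger gene, at −0.31 and 0.41 (limma adjp = 0.0289). The zinc finger genes, Zfp26 and Zfp783, with Pdpr and Sis, were lower at 6 months and higher at 12 months, and Gm14057 and Otub2 showed the reverse. No gene passed an adjp of 0.1 (0%) for a difference of the E14.5 or the 1-month effect from that at 6 months. The limma interaction fit takes a single spread per gene from all 48 samples, so noisier ages widen its errors. For Padi2 the standard error was 0.05 at 6 months, 0.06 at 1 month and 0.24 at E14.5. That of the interaction against 1 month was 0.21. The lack of calls thus does not show that the effects were equal. The unadjusted limma p was below 0.05 for 904 of 17297 genes against E14.5 and 582 of 17236 against 1 month. Against 12 months it was below 0.05 for 1505 of 17271 genes. The oligodendrocyte list had medians from E14.5 to 12 months of −0.02, −0.02, −0.19 and −0.03, and the astrocyte list had −0.05, −0.02, 0.12 and 0.02. The number of lower oligodendrocyte markers was 8 of 14 at 1 month, 14 of 14 at 6 months and 8 of 14 at 12 months, and the difference between ages was not tested for the lists.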

How the data were processed

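Per the labels and the study's methods, reads were filtered, aligned to mm9 with STAR 2.5.2b, quantified with Salmon 0.11.3 and processed with DESeq2 under a model that corrected for batch. The authors deposited VST values on a log2 scale, in a single table of 24444 genes and 48 samples. For every gene the means of replicates 1 to 3 and of replicates 4 to 6 were equal over all 48 samples (largest difference 3.38e-14), while within the 12 samples of 6 months they differed by a median of 0.064. An offset between the sets had thus been taken out beforehand, which limma does not count as a fitted term. Counts per gene were not used here, so counting error is unknown and precision is given by the spread between 6 mice.

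The 12 samples of 6 months were grouped by genotype from the labels. Genotypes were compared with limma 3.58.1 in R 4.3.3, with an intensity trend, over genes whose mean was at least 0.5 above 2.1433, and p values were adjusted by the Benjamini-Hochberg method over all genes tested. Genes with an adjp below 0.1, the study's threshold, were called. Ages were compared by interaction terms in one fit of 48 samples. Fitting was tested on simulated data. Members and lists were chosen with earlier results of these data known. Named genes are Chd8 and its neighbours, all called genes, the study's 14 genes, the 10 largest increases and decreases without overlap, list members with an unadjusted p below 0.05, and defining markers, of which those most informative are given. Alternatives were another filter, variance model, scaling, covariate (read depth from the study's sample list, or the set of replicates) or threshold, fitting all samples together, a replicate block, and leaving out each sample. Coordinates are those of GENCODE vM1 on mm9. Figures were drawn with matplotlib 3.10.9.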

Additional observations from a re-analysis of the deposited data

Results flagged for a closer look

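Among 232 groups of 6 mice (116 named genes in both genotypes), 13 single values lay far from the rest of their group, where chance alone gives about 1 in 20 groups. Only 1 was in a called gene: Padi2 in WT mouse 1 was 9.76, below the next value of 9.95. Mutant mouse 4 was low in the oligodendrocyte genes Cldn11 (11.01) and Enpp6 (7.11) and high in Hist1h4b (2.71). Mutant mouse 5 was high in Pebp4 (3.67) and Sst (11.89). Further low mutant values were Asl in mouse 6 (7.63), Rarres2 in mouse 3 (6.00) and Fibcd1, a hippocampal marker, in mouse 1 (9.68). In WT mice, Mrpl17 was high in mouse 4 (9.46), Mog in mouse 5 (10.41) and Avp, a hypothalamic peptide gene, in mouse 1 (7.69 against a next value of 4.08), and Xist was low in mouse 4 (2.63).

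The genotype effect at 6 months differed from that at 12 months by the limma interaction test for 10 genes. Of these, 2 belong to the named genes as defined for the processing, Hmgb3 (−0.36) and Dio3 (1.31), in log2 units.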

How the results depend on the processing

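Chd8 stayed called with fold-changes between −0.65 and −0.61 under every alternative and without any one mouse. The 16 called genes became 4 without an intensity trend (3 of the 16, Chd8, Slc5a5 and Hmgb3, among them), 2 with read depth as a covariate (the other 14 at adjp 0.101 to 0.17 and 88.7% to 109% of their fold-changes), 5 at an adjp below 0.05, and 5 to 21 without 1 mouse, fits that hold fewer samples. The 5 at an adjp below 0.05 were Chd8, Slc5a5, Usp11, Hmgb3 and Ddo. In a fit of all 48 samples together, Slc5a5, Ddo, Padi2, Phc1, Tmem50a, Lxn, Parva, Cd9 and Rlbp1 lost their calls. That fit takes the spread of each gene from all ages, not from 6 months alone. Standard errors at E14.5 and 6 months, fitted separately, were 0.24 and 0.05 for Padi2 and 0.17 and 0.05 for Lxn. Over all settings, the highest limma adjp was 0.242 for Slc5a5, 0.646 for Lxn and 0.948 for Padi2. With the replicate number as a block, 30 genes were called, 14 of them shared with the 16. Mal, Mobp, Slco1c1, Srsf5 and Hmgn2 were among the others. With this block the 10 genes that differed between 6 and 12 months became 6. The labels do not say that the numbers pair mice, although replicates 1 to 3 and 4 to 6 had been centred as sets: same-numbered WT and mutant mice correlated at −0.05 to 0.17 after removal of group means, and 1 of 6 WT mice was closest to the mutant of its own number. The 10 genes became 6 at an adjp below 0.05, and 5 to 11 without 1 mouse, an alternative chosen after seeing the data: leaving out WT mouse 1 gave 5, WT mouse 6 gave 6 and mutant mouse 3 gave 5. Against E14.5 and 1 month the counts were 0 to 2 and 0 to 1 without 1 mouse. For single named genes other than Chd8, 2368 values kept their direction and side of the threshold, 140 lost the call, 13 gained it and 2 changed sign, both of Xist, which was not called (0.22, against −0.058 with read depth and −0.053 to 0.353 without 1 mouse, lowest without WT mouse 4). The causes were not tested. Depth per gene is unknown, and differences near the lower end of the scale are understated.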
